A study of Homo sapiens with 14 samples.

Results

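Acriflavine added on top of TGFb1 was set against TGFb1 alone in PANC-1 cells, an established line from a human pancreatic ductal carcinoma. The comparison takes the 3 arrays of the group given TGFb1 at 5 ng/ml with acriflavine at 2.5 µM and the 4 arrays of the group given TGFb1 at 5 ng/ml alone, 7 of the 14 arrays analysed here, and covers every gene of the deposited expression table. The other arrays are 3 of TGFb1 at 5 ng/ml with sodium valproate at 2 mM and 4 of control cells given vehicle, and cells given acriflavine without TGFb1 are not analysed here, so the change described below is that of acriflavine in the presence of TGFb1. Cells of every group were grown in medium with 10% fetal calf serum, kept for 24 h in 1% serum and then held for 48 h with the agents, all of which went on together. RNA of each sample, 200 ng, was hybridised to 1 array, and the labels call the replicates biological without naming separate cultures, so the p-values measure the spread between these samples. All cells are of 1 line, no second line or dose stands beside them, and the number of arrays limits the precision of every value.

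TGFb1 binds a pair of receptor kinases that phosphorylate SMAD proteins, and in many carcinoma lines it drives epithelial to mesenchymal transition (EMT), in which E-cadherin and other junction proteins are lost and matrix genes are gained. Acriflavine is a mixture of acridine dyes, long used as an antiseptic, that binds DNA and is known to block pairing of the subunits of hypoxia-inducible factor (HIF). The transcription factor ATF4, made when translation is slowed by stress or lack of amino acids, turns on genes that make, import and charge amino acids with tRNA. Values below are log2 intensities after RMA, an array normalisation by background correction, quantile scaling and probe summary. A difference is given as TGFb1 with acriflavine minus TGFb1, on the log2 scale with its standard error (SE), from limma with Benjamini-Hochberg adjustment over 10877 genes, and "rose" and "fell" are used of genes with an adjusted p under 0.05.

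The 3 acriflavine arrays lay close together, with correlations of 0.995 to 0.997 between them. Correlations between acriflavine and TGFb1 arrays were 0.920 to 0.939, and the first principal component, with 66.5% of the variance, separated the groups. TGFb1 array 4 stood apart from the other TGFb1 arrays, at -39.5 on the second component (23.8% of the variance) where they lay at 7.48 to 18.9, and its correlation with them was 0.942 to 0.958. The standard deviation of an array's genes about its group mean was 0.0665 to 0.0901 in the acriflavine arrays, against 0.375 in TGFb1 array 4, 0.256 in TGFb1 array 2 and 0.147 and 0.160 in the other two. Of the ductal markers, 6 of 10 were bright enough to be tested, KRT8 and KRT19 among them. Of the markers of acinar cells, islets, hepatocytes, leukocytes and endothelium, 1 of 10, 0 of 6, 2 of 14, 3 of 11 and 2 of 10 were, and of these CD68 fell (-0.76 ± 0.136) while no other passed the test. Of 11 fibroblast and stellate markers 5 were tested, and COL1A1, COL3A1 and CSPG4 fell.

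Acriflavine moved a large share of the transcriptome. Of the 10877 genes tested, 2660 rose (24.5%) and 2078 fell (19.1%), and the median change over all of them was 0.03. Every list count below is to be set beside these shares. At least 2-fold changes were far fewer, 408 rises (3.75%) and 345 falls (3.17%), and 47 rises and 51 falls reached 4-fold. Without TGFb1 array 4 the counts were 3199 and 2415. Arrays of the groups did not overlap for 24.8% of genes with acriflavine higher and for 19.3% with it lower.

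F3 had the largest rise of the genes tested and BCAT1 the largest fall. F3, tissue factor, which starts coagulation, had levels of 11.99, 11.78 and 12.01 in the acriflavine arrays, against 8.17, 7.65, 8.02 and 7.14 in the TGFb1 arrays, a rise of 4.18 ± 0.185 (adjusted p = 6.48e-09). BCAT1, which transaminates branched-chain amino acids in the cytosol, had 6.12, 6.14 and 6.27 with acriflavine, against 10.52, 9.46, 10.80 and 10.24 with TGFb1 alone, a change of -4.08 ± 0.261 (adjusted p = 8.10e-08). No array of one group reached the range of the other for either gene. The files used hold no call of which probe sets exceed background. Where all arrays of a group lay under the brightness limit of 6.89, a gene passed the limit only through groups where it is high, and its change may understate the true one. Among the genes named here this holds in the acriflavine arrays for BCAT1, CTH, CCND2, ANK2, SLITRK6, COL3A1, DNAJC12, IL1R1 and TET2, and in the TGFb1 arrays for CXCL5, ANXA3, MX1, CLDN11, EREG and LY96. The changes of all these genes are the measured ones, not bounds. Among the 20 largest rises were also ANXA3, a calcium-binding annexin (3.34), IGFBP4, which binds insulin-like growth factors (3.22), PPL, the desmosome-linked periplakin (2.76), SPINT1, an inhibitor of surface serine proteases (2.78), and the acute-phase inhibitor SERPINA3 (2.68). ANK2, a membrane-skeleton ankyrin (-3.56), SLITRK6, a neuronal surface protein (-3.23), and CCND2, cyclin D2 (-3.39), were among the 20 largest falls.

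**Figure D1:**
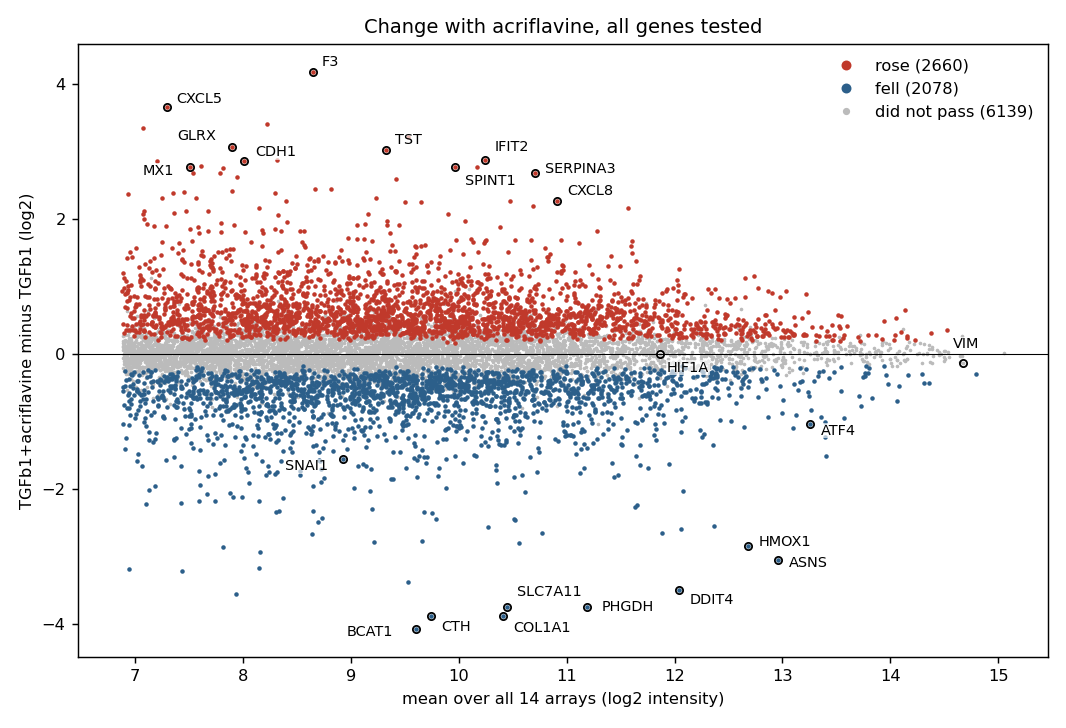
Log2 change with acriflavine added to TGFb1 (vertical axis) against the mean log2 intensity (horizontal axis) for the 10877 genes tested, coloured by whether the gene rose, fell or did not pass an adjusted p of 0.05, with named genes labelled. The cloud is spread about a median of 0.03, and amino acid and ATF4 genes such as BCAT1, PHGDH and ASNS mark its lower edge while F3, CXCL5 and CDH1 mark its upper edge.

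Genes that make serine, asparagine and cysteine fell steeply. Of 9 serine and one-carbon enzymes tested, 6 fell and 2 rose (1 to 2 with 1 array left out, since the call of MTHFD1 was lost without any acriflavine array), with a median change of -0.58. PHGDH, the first enzyme of serine synthesis from glucose, had 8.11, 8.32 and 8.10 in acriflavine arrays, against 12.08, 12.21, 12.11 and 11.33 in TGFb1 arrays, a change of -3.76 ± 0.182 (adjusted p = 1.05e-08). PSAT1, the next enzyme, had 10.26, 10.26 and 10.18 against 13.07, 12.69, 13.22 and 12.19, a change of -2.56 ± 0.199. In both, the lowest TGFb1 value was that of array 4, and it still lay above every acriflavine value. The mitochondrial folate enzyme MTHFD2 fell by less (-1.23 ± 0.143), SHMT2, which feeds it, passed without TGFb1 array 4 and not otherwise (-0.31 ± 0.128), and SHMT1, its cytosolic counterpart, rose (0.90 ± 0.164), though its probe sets ranged from -0.18 to 0.90.

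Among 13 other amino acid enzymes, 7 fell (53.8%) and 3 rose (23.1%, near the 24.5% over all genes), with a median of -0.48. ASNS, asparagine synthetase, had 10.44, 10.44 and 10.24 with acriflavine, against 13.77, 13.57, 13.78 and 12.61 with TGFb1 alone (-3.06 ± 0.219, adjusted p = 2.18e-07). CTH, which makes cysteine from cystathionine, had 6.41, 6.50 and 6.43, against 11.14, 10.37, 11.18 and 8.69 (-3.90 ± 0.454, adjusted p = 1.44e-05). TGFb1 array 4 was the lowest of its group for both, and its CTH level was nearer to the acriflavine arrays than those of the other TGFb1 arrays were. GOT1, the cytosolic aspartate aminotransferase, fell with them (-1.76), while ASS1, of arginine synthesis (0.89), and GLUL, glutamine synthetase (0.63), rose.

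None of 15 amino acid transporters tested rose, and 10 fell, with a median of -0.73. SLC7A11, the cystine importer that supplies glutathione synthesis, had 7.11, 7.02 and 7.44 in acriflavine arrays, against 11.30, 10.69, 11.30 and 10.47 in TGFb1 arrays (-3.75 ± 0.209, adjusted p = 2.81e-08). SLC7A5, the leucine importer (-1.64), SLC1A4, a neutral amino acid carrier (-1.64), and SLC36A4, another amino acid carrier (-1.54), fell. The glutamine carrier SLC1A5 did not pass, at -0.60 ± 0.241, though it passed without TGFb1 array 4.

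The mRNA of ATF4 fell as well, and its protein was not measured. ATF4 had 12.45, 12.44 and 12.43 with acriflavine, against 13.58, 13.67, 13.56 and 13.11 with TGFb1 alone (-1.04 ± 0.111, adjusted p = 7.00e-06). Of 23 ATF4 targets and stress regulators tested, 14 fell and 4 rose, with a median of -1.04. DDIT4, an inhibitor of mTOR signalling (-3.50), NUPR1, a stress-induced chromatin protein (-2.60), XPOT, the exporter of tRNA (-2.66), and CHAC1, which degrades glutathione (-2.46), fell at least 4-fold. ATF5 rose, with 11.74, 11.70 and 11.73 against 10.06, 10.25, 9.98 and 10.02 (1.65 ± 0.0906), and so did PPP1R15A, which resets translation by aiding removal of phosphate from eIF2 (0.83 ± 0.241). GDF15, a stress-induced cytokine (0.20 ± 0.206), and CEBPB, a partner of ATF4 (0.28 ± 0.254), did not pass.

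TGFb1 array 4 lay below the other TGFb1 arrays for these genes: the median over the ATF4 and stress regulators differed there by -0.83 from TGFb1 arrays 1 to 3. Without it DDIT4 changed by -3.78 and CTH by -4.45, each more than with it.

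Enzymes that charge tRNA divided by compartment. Of 19 cytosolic tRNA synthetases 13 fell and 3 rose (median -0.65). Of 16 mitochondrial ones 3 fell (18.8%) and 4 rose (25%), near the 19.1% and 24.5% over all genes (median 0.09). EPRS1, for glutamate and proline, had 9.64, 9.49 and 9.90 with acriflavine, against 11.57, 11.13, 11.65 and 11.15 with TGFb1 alone (-1.69 ± 0.139). AARS1, for alanine (-1.65), GARS1, for glycine (-1.51), and YARS1, for tyrosine (-1.21), fell by at least 2-fold. VARS1, for valine (0.02 ± 0.187), and RARS1, for arginine (0.05 ± 0.0794), did not pass. HARS1 rose (0.69 ± 0.209), with TGFb1 array 4 at 10.50 above the acriflavine arrays at 10.47, 10.46 and 10.44, and its call was lost without TGFb1 array 3.

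**Figure D2:**
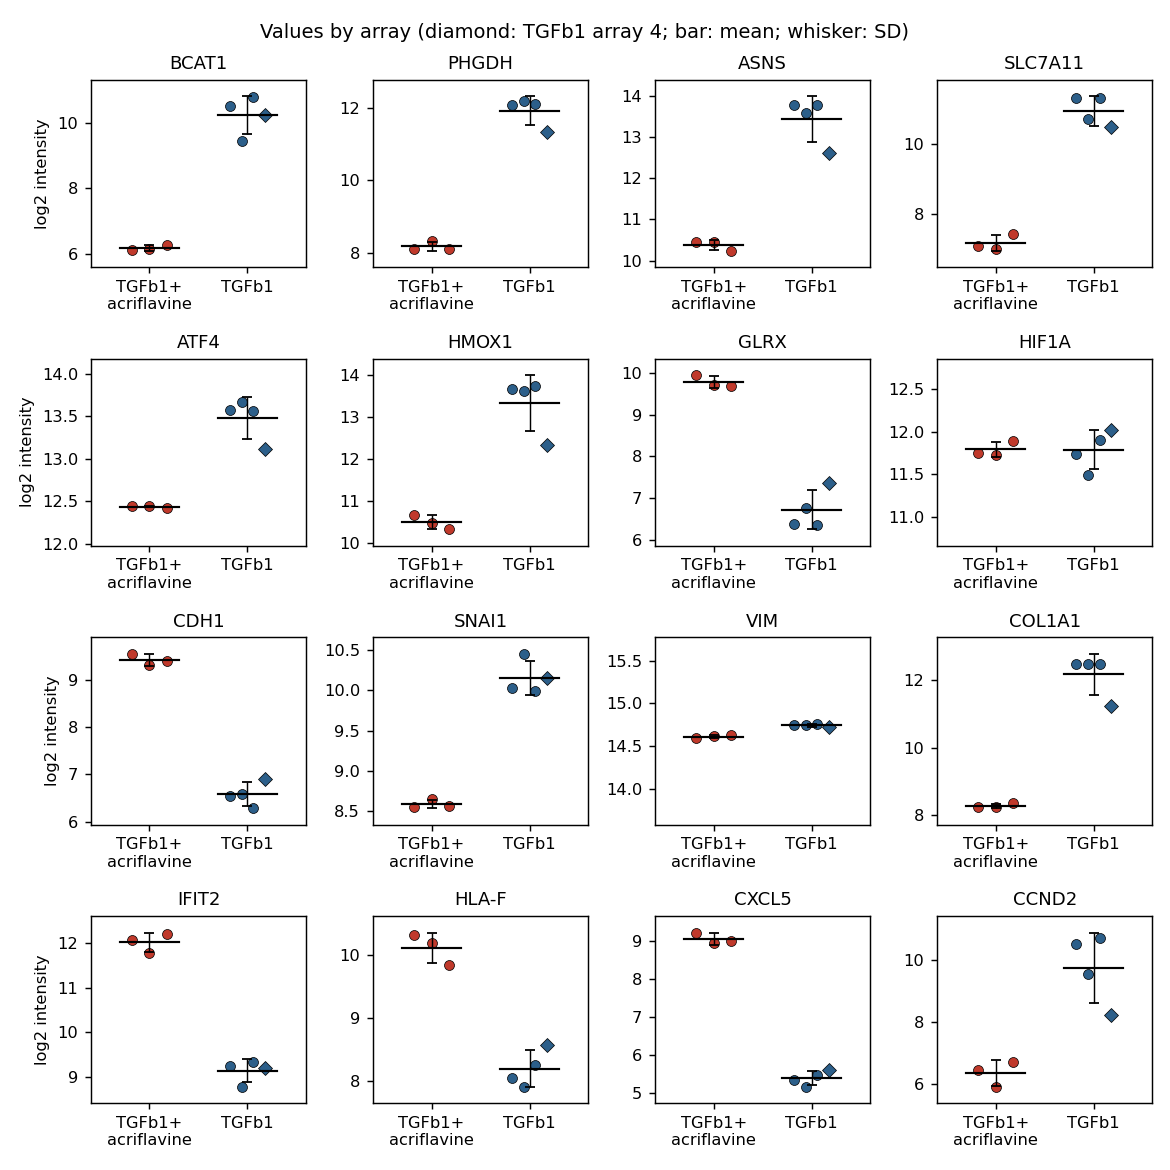
Log2 intensity of 16 genes in each array, with the 3 acriflavine arrays left and the 4 TGFb1 arrays right in every panel, a bar at the mean, a whisker of 1 SD and a diamond for TGFb1 array 4. Amino acid genes, ATF4, HMOX1, SNAI1, COL1A1 and CCND2 lie lower with acriflavine, GLRX, CDH1, IFIT2, HLA-F and CXCL5 lie higher, and HIF1A overlaps between the groups.

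Promoters of the amino acid genes are shown because a known binding element of ATF4 with C/EBP partners, spelled TGATGNAA, was searched on both strands in windows from 250 bases before to 50 bases after the transcription start (RefSeq, GRCh38.p14), which were matched for 9000 of the 10877 genes. It was in 15 of 42 promoters (35.7%) of fallen genes in the amino acid, ATF4 and cytosolic tRNA synthetase lists and in 0 of 25 of those lists' genes that rose or did not pass, beside 157 of all 9000 (1.74%). Genes that fell at least 2-fold held it in 5.9% of promoters and those that rose at least 2-fold in 3.56%. The windows of ASNS (chr7:97872359-97872658, minus strand), BCAT1 (chr12:24949052-24949351, minus strand) and CHAC1 (chr15:40953221-40953520, plus strand) follow, 5′ to 3′ along the gene, with the match in capitals, starting 68, 48 and 209 bases before the start.
ASNS: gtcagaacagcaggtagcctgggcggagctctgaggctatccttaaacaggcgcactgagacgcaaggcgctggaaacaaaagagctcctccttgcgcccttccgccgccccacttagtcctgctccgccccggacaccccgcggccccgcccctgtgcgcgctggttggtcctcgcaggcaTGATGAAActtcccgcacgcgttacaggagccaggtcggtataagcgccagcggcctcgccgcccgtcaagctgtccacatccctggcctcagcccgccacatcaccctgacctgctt
BCAT1: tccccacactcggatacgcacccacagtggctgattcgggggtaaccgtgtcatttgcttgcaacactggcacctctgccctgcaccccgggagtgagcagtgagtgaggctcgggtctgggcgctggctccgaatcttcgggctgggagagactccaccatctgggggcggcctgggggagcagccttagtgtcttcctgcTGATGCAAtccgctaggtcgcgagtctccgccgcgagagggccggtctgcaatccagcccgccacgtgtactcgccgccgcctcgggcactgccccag
CHAC1: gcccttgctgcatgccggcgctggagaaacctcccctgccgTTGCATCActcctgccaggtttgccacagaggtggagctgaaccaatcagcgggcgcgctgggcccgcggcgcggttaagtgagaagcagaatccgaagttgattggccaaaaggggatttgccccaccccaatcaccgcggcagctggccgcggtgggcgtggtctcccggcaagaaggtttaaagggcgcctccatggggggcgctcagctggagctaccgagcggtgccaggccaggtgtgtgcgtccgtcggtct
The CHAC1 match reads on the opposite strand. A match describes these letters only, and binding was not measured.

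The endoplasmic reticulum list moved less. Of 29 chaperones and unfolded protein response genes 12 fell (41.4%, beside 19.1% over all genes) and 2 rose (6.9%, beside 24.5%), with a median of -0.14. Of these rises there were 0 to 4 with 1 array left out, the most without TGFb1 array 4. HERPUD1, of protein removal from the reticulum (-1.52), XBP1, a transcription factor of the response (-1.34), UGGT1, a folding sensor (-1.20), and SEL1L, of the protein removal complex (-0.96), fell. The chaperones HSP90B1 (-0.14 ± 0.153) and CANX (0.12 ± 0.109) did not pass.

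Genes of thiol and oxidant defence, many of them targets of NRF2, changed in both directions, with the share of rises near the 24.5% over all genes and that of falls above the 19.1% over all genes. Of 36 tested, 9 rose and 11 fell (median -0.10). GLRX, glutaredoxin, had 9.96, 9.72 and 9.70 in acriflavine arrays, against 6.38, 6.76, 6.37 and 7.37 in TGFb1 arrays (3.07 ± 0.221), and TST, a mitochondrial sulfur transferase, had 11.67, 11.75 and 11.56, against 8.40, 8.86, 8.33 and 8.97 (3.02 ± 0.157). HMOX1, heme oxygenase, which is induced by oxidants, had 10.66, 10.49 and 10.33, against 13.67, 13.62, 13.75 and 12.34 (-2.85 ± 0.27), and GPX8, a peroxidase of the endoplasmic reticulum, had 8.40, 8.47 and 8.24, against 11.23, 11.04, 11.30 and 11.12 (-2.81 ± 0.0874). All 4 genes separated the groups without overlap, and of them GPX8 had the smallest spread within TGFb1 arrays. GLRX lay under the brightness limit of 6.89 in TGFb1 arrays 1 to 3, so its change may be understated. GCLC, the catalytic subunit of glutathione synthesis (-0.79 ± 0.118), and ME1, malic enzyme (-0.95 ± 0.159), fell, and PRDX1, a peroxiredoxin (0.04 ± 0.074), and FTL, ferritin light chain (-0.11 ± 0.0591), did not pass.

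Acriflavine is known as an inhibitor of HIF, and mRNA of the HIF subunits and their targets was read for that reason. HIF1A did not pass: it had 11.75, 11.73 and 11.89 with acriflavine, against 11.73, 11.50, 11.91 and 12.02 with TGFb1 alone, a difference of 0.00 ± 0.114. Its relative EPAS1 had 11.43, 11.32 and 11.36, against 12.67, 12.28, 12.89 and 12.24 (-1.16 ± 0.171), and the shared partner ARNT fell by less (-0.46 ± 0.0819). Of 29 HIF subunits and hypoxia genes, 15 fell and 4 rose, with a median of -0.43. ANGPTL4, a secreted lipase inhibitor (-2.66), VEGFA, the vascular growth factor (-1.03), and BNIP3L, of mitochondrial turnover (-0.91), fell, whereas its relative BNIP3 (1.09) and ADM, adrenomedullin (0.94), rose. Glycolytic genes, many of which HIF also drives, gave 4 rises and 3 falls of 20 (6 falls without TGFb1 array 4). The 4 and 3 are 20% and 15%, beside 24.5% and 19.1% over all genes. PFKFB4, a regulator of phosphofructokinase, rose (1.54 ± 0.257), ENO1, enolase, fell (-0.57 ± 0.0762), and GAPDH (0.04 ± 0.0651) and LDHA (0.01 ± 0.0754) did not pass.

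Epithelial genes rose in part. CDH1, which encodes E-cadherin, had 9.57, 9.32 and 9.41 in acriflavine arrays, against 6.55, 6.59, 6.28 and 6.90 in TGFb1 arrays (2.85 ± 0.28, adjusted p = 3.49e-06), and the control cells averaged 8.98 ± 0.688 (SD, n = 4). In TGFb1 arrays 1 to 3 CDH1 lay under the brightness limit of 6.89, so its change may be understated. Of 26 junction and adhesion genes 9 rose (34.6%) and 5 fell (19.2%), with a median of 0.25. Over all genes the shares were 24.5% and 19.1%. LSR, of tricellular contacts, had 11.98, 11.85 and 11.85, against 9.71, 9.78, 9.69 and 9.36 (2.26 ± 0.117), and EPCAM, an epithelial adhesion molecule, had 11.11, 10.99 and 11.11, against 9.24, 8.59, 9.51 and 9.06 (1.97 ± 0.158). Both were higher in every acriflavine array than in any TGFb1 array. The claudin CLDN23 also rose (1.34), while the tight junction scaffold TJP1 (-0.81) and the desmosomal cadherin DSG2 (-0.76) fell. CTNNB1, beta-catenin (-0.10 ± 0.074), and CLDN1 (0.73 ± 0.33) did not pass, though CLDN1 passed without TGFb1 array 1 or 3.

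Of 9 epithelial transcription and splicing factors 4 rose, FOXA2 (1.54), KLF4 (1.33), ELF3 (1.05) and ESRP2 (0.68), and 0 fell (1 without TGFb1 array 4). The 4 are 44.4%, beside 24.5% over all genes. The median over these factors differed in TGFb1 array 4 by -0.53 from TGFb1 arrays 1 to 3. SPINT1, which inhibits the surface protease matriptase, had 11.45, 11.31 and 11.37 with acriflavine, against 8.69, 8.75, 8.69 and 8.27 with TGFb1 alone (2.78 ± 0.133), and ST14, matriptase itself, rose less (0.80 ± 0.132). Of 8 tested genes in a list of keratins that also holds a keratin-associated protein, 5 rose (62.5%), and 3 did without acriflavine array 2. The largest of these rises, 3.41, was that of the keratin-associated protein, which is not itself a keratin. Among the keratins, KRT80 rose by 1.66 ± 0.406, KRT7 by 0.67 ± 0.19 and KRT8 by 0.57 ± 0.171. KRT19 had 12.88, 12.87 and 12.83, against 11.65, 12.44, 11.41 and 12.73, a rise of 0.81 ± 0.285 that was lost without TGFb1 array 1 or 3 or any acriflavine array. The KRT8 call was lost without acriflavine array 2, and TGFb1 arrays 2 and 4 held the higher KRT19 levels of their group.

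Transcription factors of EMT, some of which repress CDH1, changed unevenly. SNAI1, induced by TGFb1 through SMADs, had 8.55, 8.65 and 8.57 in acriflavine arrays, against 10.02, 10.45, 9.99 and 10.15 in TGFb1 arrays (-1.56 ± 0.158, adjusted p = 4.47e-06), and control cells averaged 7.53 ± 0.322 (SD, n = 4), below both. ZEB1 had 9.30, 9.34 and 9.50, against 9.90, 9.39, 10.07 and 10.23 (-0.52 ± 0.169), where TGFb1 array 2 overlapped the acriflavine arrays and the call was lost without TGFb1 array 3 or acriflavine array 1 or 2. SOX4 (-0.98 ± 0.102) and HMGA2 (-0.62 ± 0.112) fell as well. HMGA2 probe sets ranged from -1.10 to 0.12. TWIST2, another repressor of CDH1, rose (1.06 ± 0.237).

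Mesenchymal genes did not move as a block. VIM, vimentin, did not pass, with 14.59, 14.62 and 14.63 with acriflavine, against 14.75, 14.75, 14.76 and 14.72 with TGFb1 alone (-0.14 ± 0.0615), and neither did CDH2, N-cadherin (0.03 ± 0.0792), or FN1, fibronectin (-0.27 ± 0.322), for which TGFb1 array 4 at 8.65 lay above the other 6 arrays. Of 29 mesenchymal and matricellular genes, 10 fell and 4 rose (2 to 5 with 1 array left out, lowest without TGFb1 array 1 or 3 or acriflavine array 1 or 2), with a median of -0.14. The 10 and 4 are 34.5% and 13.8%, beside 19.1% and 24.5% over all genes. SPOCK1, a matrix proteoglycan, had 7.68, 7.75 and 7.81, against 10.26, 10.17, 10.40 and 11.34 (-2.80 ± 0.341), and CNN1, smooth muscle calponin, had 7.71, 7.67 and 7.56, against 10.08, 10.05, 9.88 and 8.41 (-1.95 ± 0.298). TGFb1 array 4 was the highest of its group for SPOCK1 and the lowest for CNN1. LTBP2, of the latent TGFb-binding family (-1.28), and MFAP2, of microfibrils (-1.06), fell, whereas ACTA2, smooth muscle actin, rose (1.27 ± 0.104).

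Most collagen genes tested fell. COL1A1, chain alpha-1 of collagen I, had 8.24, 8.24 and 8.35, against 12.45, 12.48, 12.46 and 11.24 (-3.88 ± 0.275, adjusted p = 1.96e-07), and its probe sets ranged from -4.23 to -0.51. COL3A1, of the fibrils that run with collagen I, had 5.63, 5.91 and 5.76, against 7.80, 8.30, 7.95 and 7.92 (-2.22 ± 0.134). In all, 7 of 11 collagen genes fell and 2 rose (1 when any array but TGFb1 array 4 was left out, since COL16A1 then lost its call). Of 19 collagen-modifying enzymes 7 fell (36.8%) and 2 rose (10.5%), beside 19.1% and 24.5% over all genes. Of these rises there were 1 to 4 with 1 array left out, the most without TGFb1 array 4. P4HA3, a collagen prolyl hydroxylase (-2.43), PCOLCE2, which aids removal of the propeptide (-1.59), and PLOD2, a lysyl hydroxylase (-0.91), led the falls. Of the basement membrane genes LAMB1 rose (1.18 ± 0.165), HSPG2, perlecan, fell (-0.60 ± 0.089), and AGRN, agrin (-0.13 ± 0.0618), and LAMC1, a laminin chain (-0.30 ± 0.15), did not pass.

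Of 10 integrin subunits tested 4 fell (40%) and 2 rose (20%), with a median of -0.36. Over all genes 19.1% fell and 24.5% rose. The alpha-v chain ITGAV had 11.25, 11.34 and 11.40 with acriflavine, against 12.63, 12.20, 12.94 and 13.003 with TGFb1 alone (-1.36 ± 0.168), and its partner ITGB3 had 7.52, 7.41 and 7.44, against 9.30, 8.93, 9.44 and 9.11 (-1.74 ± 0.117). ITGB4, of the hemidesmosome, had 9.07, 9.14 and 8.88, against 7.49, 8.01, 7.30 and 7.26 (1.51 ± 0.155), with probe sets from 0.11 to 1.51, and its partner ITGA6 rose by 0.69 ± 0.0934. ITGA2, of a collagen receptor (-0.73 ± 0.13), and ITGB1, the beta chain most integrins share (-0.44 ± 0.0948), fell, and ITGA3 (-0.28 ± 0.231) and ITGB5 (-0.00 ± 0.0881) did not pass, though ITGA3 passed without TGFb1 array 4. Among metalloproteases MMP7, matrilysin, had 10.99, 10.70 and 10.60, against 8.26, 8.03, 8.50 and 9.01 (2.31 ± 0.226), and ADAM19, a membrane sheddase, had 7.82, 7.77 and 7.68, against 9.95, 10.21, 9.89 and 10.97 (-2.50 ± 0.228). The inhibitor TIMP2 fell (-0.99 ± 0.143), and TIMP1 did not pass (0.22 ± 0.104), though it did without TGFb1 array 4.

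Within the TGFb pathway the type I receptor fell. TGFBR1, the type I receptor kinase, had 8.48, 8.46 and 8.56 in acriflavine arrays, against 10.03, 9.62, 10.07 and 10.37 in TGFb1 arrays (-1.53 ± 0.13, adjusted p = 9.43e-07), and TGFBR2, the type II receptor, differed by 0.24 ± 0.16, which passed without TGFb1 array 4 only. SMAD3, which the receptor phosphorylates, did not pass (0.06 ± 0.0848), and its partner SMAD4 fell (-0.44 ± 0.101). Of 16 ligands, receptors and SMADs 4 fell (25%, beside 19.1% over all genes) and 0 rose (beside 24.5%), though 3 rose without TGFb1 array 4. The median change of these 16 was -0.10. Feedback inhibitors and co-repressors of the TGFb pathway gave 7 falls (43.8%) and 3 rises (18.8%) of 16. SKI, a co-repressor of SMADs, had 9.01, 8.99 and 9.05, against 11.06, 11.22, 10.99 and 10.46 (-1.92 ± 0.168), and the inhibitory SMAD7 had 10.05, 10.08 and 9.98, against 10.70, 10.74, 10.65 and 10.86 (-0.70 ± 0.119). CITED2 rose (1.15 ± 0.329). INHBB, an activin subunit, had 10.52, 10.38 and 10.53, against 7.71, 7.92, 7.82 and 8.08 (2.60 ± 0.106), and control cells averaged 10.73 ± 0.14 (SD, n = 4). BMPR2, a receptor of bone morphogenetic proteins (-1.51), and ID1, a target of that receptor (-1.19), fell.

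Interferon-stimulated genes were the list with the largest share of rises among those of 20 or more genes tested. Of 34 tested, 24 rose and 2 fell, with a median of 0.94. IFIT2, which binds viral RNA, had 12.07, 11.79 and 12.21 with acriflavine, against 9.26, 8.78, 9.34 and 9.21 with TGFb1 alone (2.87 ± 0.157, adjusted p = 2.52e-08), and control cells averaged 11.45 ± 0.185 (SD, n = 4). MX1, an antiviral GTPase, had 9.26, 9.03 and 8.83, against 6.12, 6.30, 6.12 and 6.56 (2.76 ± 0.381), and IFIT1, a relative of IFIT2 that recognises foreign RNA, had 10.95, 10.84 and 10.79, against 8.33, 8.40, 8.43 and 9.31 (2.24 ± 0.238). All 3 genes were higher in each acriflavine array than in any TGFb1 array. HERC5, which attaches the modifier ISG15 to proteins, rose (2.16 ± 0.163), IRF7, which amplifies interferon expression (-0.97 ± 0.168), and MX2, a relative of MX1 (-0.39 ± 0.0786), fell, and IFI35 did not pass (-0.14 ± 0.136).

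Genes of antigen presentation on HLA class I rose with them: 14 of 17 rose and 0 fell, with a median of 0.93. HLA-F had 10.30, 10.18 and 9.84, against 8.05, 7.90, 8.25 and 8.57 (1.92 ± 0.225), and PSMB8, a subunit of the immunoproteasome that cuts peptides for display, had 11.92, 11.91 and 11.81, against 10.24, 10.42, 10.17 and 10.45 (1.56 ± 0.124). HLA genes are alike in sequence, so their probe sets may not tell them apart. PSMB9, another such subunit (1.32 ± 0.131), and ERAP2, which trims the peptides (1.18 ± 0.278), rose too. TAP2, of the peptide transporter (0.06 ± 0.111), and TAPBP, which couples it to HLA (0.19 ± 0.083), did not pass, though TAPBP passed without TGFb1 array 2.

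The interferon-stimulated response element, searched as GAAANNGAA on both strands, was in 17 of 21 promoters (81.0%) of risen interferon-stimulated genes and in 3 of 6 of those that did not pass, beside 535 of all 9000 (5.94%). Of the HLA class I list 6 of 12 promoters of risen genes held it, and 2 of 3 of those that did not pass. Genes that rose at least 2-fold held it in 14.6% of promoters and those that fell at least 2-fold in 3.69%. The promoters of IFIT1 (chr10:89392373-89392672, plus strand) and HERC5 (chr4:88456869-88457168, plus strand) are shown with matches in capitals.
IFIT1: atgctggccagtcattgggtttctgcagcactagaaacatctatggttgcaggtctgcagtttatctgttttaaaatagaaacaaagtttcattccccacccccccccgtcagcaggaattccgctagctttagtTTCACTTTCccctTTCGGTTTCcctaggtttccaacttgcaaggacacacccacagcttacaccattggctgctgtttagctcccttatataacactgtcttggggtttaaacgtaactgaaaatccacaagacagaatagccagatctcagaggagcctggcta
HERC5: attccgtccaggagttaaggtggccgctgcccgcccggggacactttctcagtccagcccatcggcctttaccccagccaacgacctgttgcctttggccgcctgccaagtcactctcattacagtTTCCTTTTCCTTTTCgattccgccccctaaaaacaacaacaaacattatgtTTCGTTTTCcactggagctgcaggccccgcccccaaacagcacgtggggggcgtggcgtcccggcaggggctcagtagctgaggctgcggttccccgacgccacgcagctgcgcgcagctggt
In IFIT1 they start 115 and 102 bases before the start of transcription, and in HERC5 124, 118 and 73 bases before it, the first pair overlapping.

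Chemokines that attract neutrophils and other leukocytes rose. CXCL5 had 9.23, 8.95 and 9.01 in acriflavine arrays, against 5.35, 5.15, 5.48 and 5.61 in TGFb1 arrays (3.67 ± 0.362, adjusted p = 3.62e-06). CCL20 had 9.20, 9.40 and 9.39, against 7.19, 6.86, 7.12 and 6.36 (2.45 ± 0.208), and CXCL8, interleukin 8, had 11.90, 11.96 and 11.96, against 9.47, 9.72, 9.34 and 10.16 (2.27 ± 0.331). No TGFb1 array reached the acriflavine range of these 3 genes. Of 9 chemokines tested 7 rose and 1 fell, the fall being CX3CL1 (-0.66 ± 0.219), which lost its call without TGFb1 array 2 or acriflavine array 3, and the median was 1.50. CXCL2 did not pass (0.92 ± 0.362), though it did without TGFb1 array 4.

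Regulators and targets of NF-kB, the transcription factor behind many of these genes, gave 13 rises and 6 falls of 26, with a median of 0.41. The 13 and 6 are 50% and 23.1%, beside 24.5% and 19.1% over all genes. TNFAIP3, an inhibitor of the pathway, had 10.17, 10.19 and 10.02, against 8.46, 8.37, 8.50 and 9.11 (1.52 ± 0.223), and ICAM1, an adhesion molecule for leukocytes, had 12.11, 12.08 and 12.003, against 10.81, 10.91, 10.85 and 10.48 (1.30 ± 0.161). NFKB1, a subunit of the factor, had 8.77, 8.80 and 8.85, against 10.56, 10.56, 10.44 and 10.12 (-1.61 ± 0.112). Its partner RELA (-0.01 ± 0.143) and the target TNFAIP2 (0.05 ± 0.124) did not pass. PTX3 (1.39) and LY96, a partner of a receptor for bacterial lipid (1.39), rose, while IL1R1, the receptor of interleukin 1, fell (-1.76).

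A κB-like element, spelled GGGANTTTC and searched on both strands, was in 106 of all 9000 promoters (1.18%), in 3.24% of those of genes that rose and 1.11% of those that fell at least 2-fold, in 2 of 4 of those of risen chemokines and in that of the 1 chemokine with a promoter that did not pass. An antioxidant core, TGANNNNGC, and a hypoxia core, ACGTG, were searched in the same way. The antioxidant core was in 45.3% of promoters of genes that rose and 46.1% of those that fell at least 2-fold, beside 42.8% of all, and the hypoxia core in 22.7% and 28.0%, beside 27.1%. The window of CXCL5 (chr4:73998628-73998927, minus strand) is given with its match in capitals, starting 91 bases before the start.
CXCL5: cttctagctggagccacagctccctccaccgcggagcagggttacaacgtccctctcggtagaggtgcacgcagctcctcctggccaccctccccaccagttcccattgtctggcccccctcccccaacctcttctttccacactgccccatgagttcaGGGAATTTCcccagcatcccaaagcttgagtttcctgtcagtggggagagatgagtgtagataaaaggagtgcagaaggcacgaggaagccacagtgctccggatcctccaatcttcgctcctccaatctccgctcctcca

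**Figure D3:**
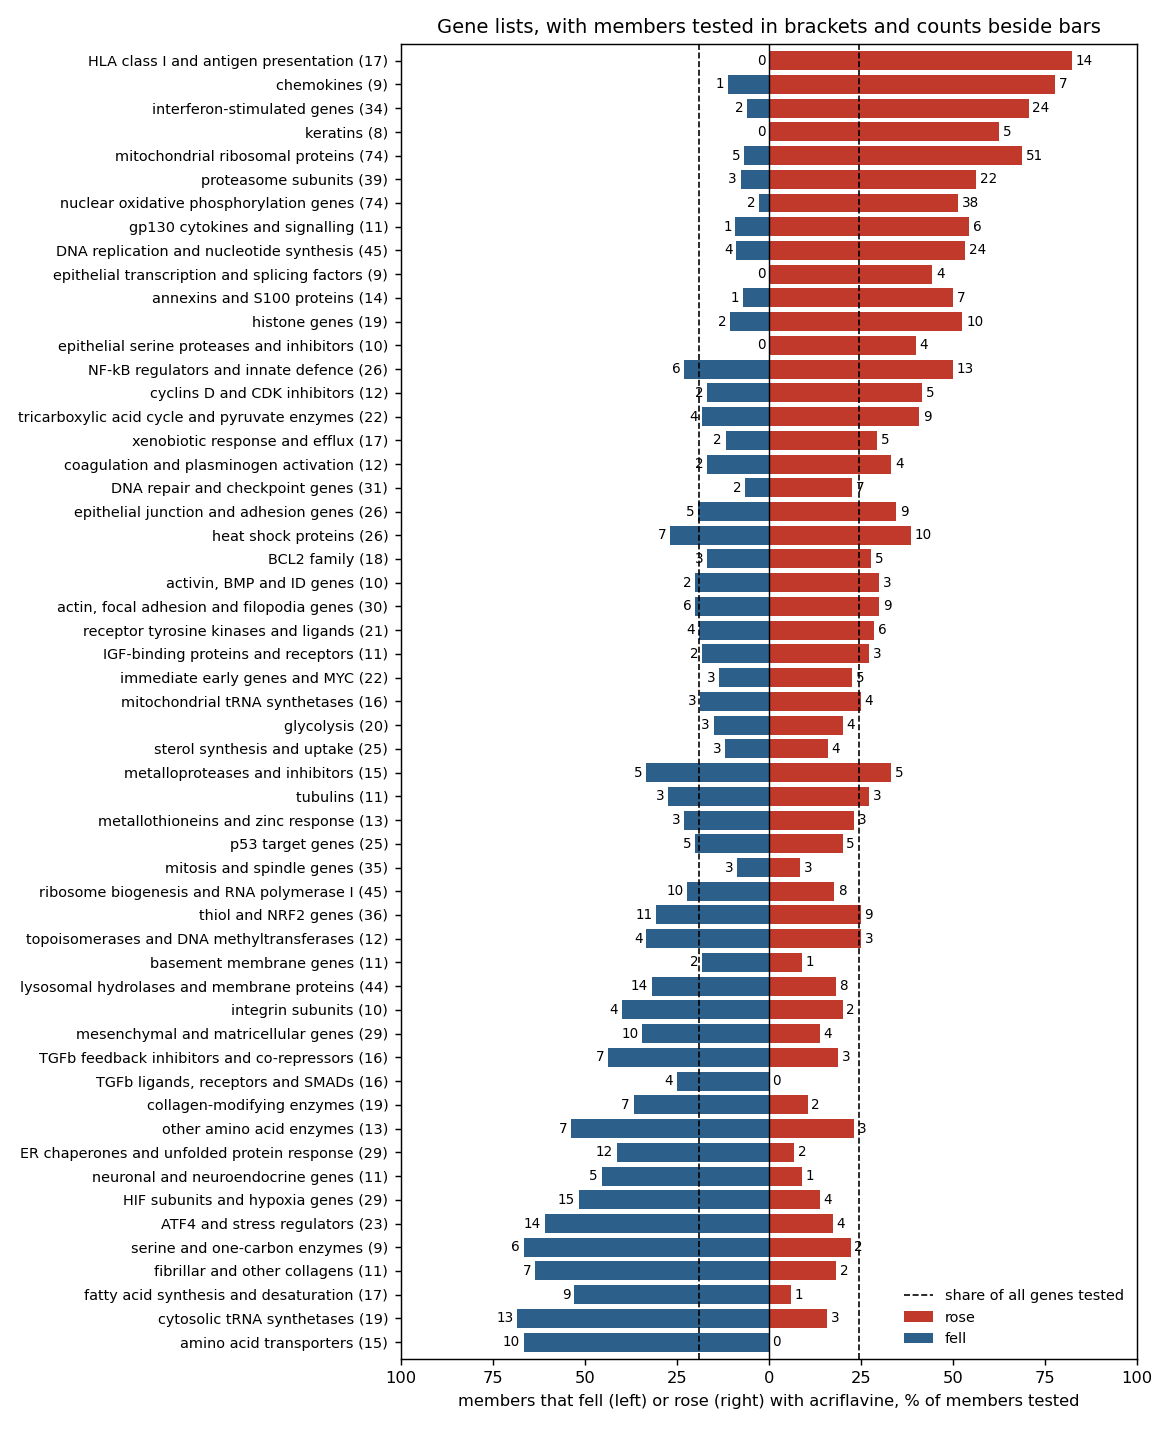
Share of tested genes of each list that fell (bars to the left) and rose (bars to the right) with acriflavine, in percent, for lists of at least 8 tested genes, with dashed lines at the shares over all 10877 genes, 19.1% and 24.5%. Cytosolic tRNA synthetase, serine and one-carbon, amino acid transporter, collagen and ATF4 lists reach furthest left, and chemokine, HLA class I, interferon-stimulated and mitochondrial ribosome lists furthest right.

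Genes of DNA replication rose together with no member reaching 2-fold. Of 45 replication and nucleotide synthesis genes 24 rose and 4 fell (2 without TGFb1 array 1 or 3 or acriflavine array 1), with a median of 0.38. PRIM1, of the primase that starts each DNA fragment, had 10.60, 10.68 and 10.62 with acriflavine, against 9.49, 9.54, 9.41 and 10.16 with TGFb1 alone (0.98 ± 0.146), and CCNE1, cyclin E1, had 11.13, 11.16 and 11.10, against 10.05, 10.20, 9.96 and 10.49 (0.96 ± 0.132). E2F1, the transcription factor of S-phase genes (0.89 ± 0.13), and CDC6, which loads the replicative helicase (0.88 ± 0.0993), rose too. POLA1, the polymerase subunit that works beside primase, fell (-0.64 ± 0.122).

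Mitotic genes gave 3 rises and 3 falls of 35 (8.57% each, below the 24.5% and 19.1% over all genes), with a median of 0.17. This count rested on 1 array. Without TGFb1 array 4, 17 rose, and without acriflavine array 1 or 2 none fell. MKI67, the Ki-67 antigen, had 10.26, 10.03 and 10.39, against 9.59, 9.54, 9.49 and 10.82 (0.37 ± 0.272) and did not pass. TGFb1 array 4 held its highest level, and without that array MKI67 passed. ANLN, of the cleavage furrow, rose (0.91 ± 0.171). DNA repair genes gave 7 rises of 31 (22.6%, near the 24.5% over all genes), 16 without TGFb1 array 4 and 4 without acriflavine array 1 or 2.

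Replication-dependent histone genes rose in part. H2AC8 had 9.97, 9.70 and 9.70, against 7.37, 7.40, 7.38 and 7.35 (2.42 ± 0.0809, adjusted p = 4.64e-10). H2BC11, among the 20 largest rises and outside the list counted next, had 10.05, 9.91 and 9.88, against 7.46, 7.21, 7.41 and 6.95 (2.69 ± 0.125). Of 19 histone genes and their processing factor 10 rose and 2 fell (1 without TGFb1 array 3 or any acriflavine array), with a median of 0.60. A replication-dependent histone gene was among those that fell. Histone genes of a cluster are alike in sequence and most of their transcripts lack the poly(A) tail that the labelling primes from, and which transcripts gave these levels was not tested. The variants H2AZ1 (-0.13 ± 0.0769) and H3-3B (0.16 ± 0.0636) did not pass.

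Targets of p53, a transcription factor of the stress response, changed at shares near those of all genes, 24.5% for rises and 19.1% for falls. Of 25 tested 5 rose and 5 fell, with 2 to 6 rising and 3 to 9 falling when 1 array was left out, 9 of them without TGFb1 array 4 and 2 rises without acriflavine array 1. CDKN1A, which encodes p21, did not pass, with 12.46, 12.46 and 12.42, against 12.35, 12.49, 12.32 and 11.64 (0.24 ± 0.15). MDM4, an inhibitor of p53 (-1.08 ± 0.114), and TP53I3, an oxidoreductase (-1.13 ± 0.0859), fell. TOP1, topoisomerase I, on which several DNA-binding drugs act, had 12.39, 12.35 and 12.40 with acriflavine, against 10.98, 10.91, 10.96 and 11.48 with TGFb1 alone (1.29 ± 0.138), and the DNA methyltransferase DNMT3A (-0.99 ± 0.0983) and the demethylating enzyme TET2 (-1.11 ± 0.222) fell. Of the cyclins, CCND2 had 6.44, 5.88 and 6.71, against 10.49, 9.54, 10.70 and 8.21 (-3.39 ± 0.482), its kinase partner CDK6 fell (-1.46 ± 0.19), and CCND3 rose (1.02 ± 0.104).

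Mitochondrial genes rose in number and by little. Of 74 mitochondrial ribosomal proteins 51 rose and 5 fell (3 without acriflavine array 3), with a median of 0.44. MRPS28 had 11.07, 10.99 and 10.87, against 9.70, 9.92, 9.59 and 10.41 (1.07 ± 0.156), and MRPL39 had 10.33, 10.25 and 10.28, against 9.28, 9.33, 9.26 and 9.54 (0.93 ± 0.102). MRPL24, with 10.65, 10.67 and 10.56, against 11.51, 11.51, 11.43 and 11.08, went the other way (-0.76 ± 0.121). Among the 74 tested genes for the respiratory chain and ATP synthase encoded in the nucleus, 38 rose and 2 fell (median 0.19), led by NDUFA9, of complex I (0.83 ± 0.135), and UQCR10, of complex III (0.82 ± 0.0812). PCK2, the mitochondrial enzyme that makes phosphoenolpyruvate, fell, with 7.33, 7.36 and 7.24, against 10.62, 10.60, 10.52 and 8.60 (-2.77 ± 0.388), and IDH1, the cytosolic isocitrate dehydrogenase, fell (-1.003 ± 0.12), while OGDH, of the citric acid cycle, rose (0.73 ± 0.1).

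Proteasome subunits gave 22 rises and 3 falls of 39 (median 0.28), with PSME2, of the interferon-inducible activator, at 0.79 ± 0.106 and the core subunit PSMB1 not passing at -0.08 ± 0.0646. Ribosome biogenesis lay near the shares over all genes (24.5% rose and 19.1% fell), with 8 rises (5 without acriflavine array 2) and 10 falls (5 without acriflavine array 1) of 45, and BOP1, of large-subunit processing, fell most (-1.49 ± 0.159). Genes of fatty acid synthesis fell, 9 of 17 against 1 rise (2 rises without TGFb1 array 2 or 4), with a median of -0.40. FASN, fatty acid synthase, had 9.09, 9.34 and 9.24 with acriflavine, against 10.000, 10.44, 9.92 and 9.92 with TGFb1 alone (-0.85 ± 0.149), and the desaturases FADS2 (-0.91 ± 0.15) and SCD (-0.78 ± 0.106) fell with it. Sterol genes gave 4 rises (7 without TGFb1 array 4, 2 without acriflavine array 1) and 3 falls of 25, 16% and 12%, below the shares over all genes. INSIG1, which restrains sterol synthesis, did not pass (0.34 ± 0.2), though it did without TGFb1 array 4. Lysosomal genes gave 14 falls (31.8%) and 8 rises (18.2%) of 44: the proteases CTSC (-1.01 ± 0.148) and CTSH (-0.85 ± 0.0928) fell, and CTSB rose (0.75 ± 0.0857).

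**Figure D4:**
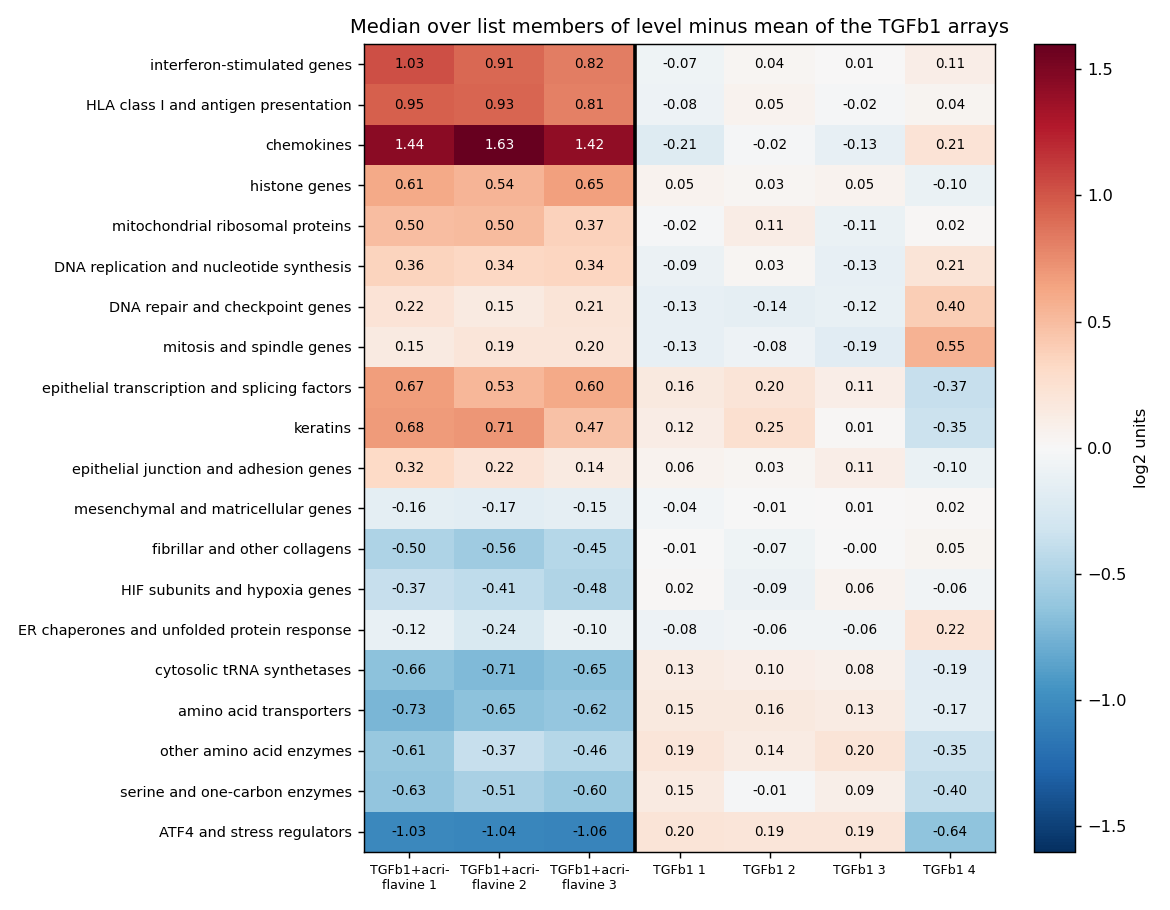
Median over the genes of 20 lists of the log2 level minus the gene's mean over the TGFb1 arrays, with 1 column per array, acriflavine arrays left and TGFb1 arrays right. The 3 acriflavine columns are alike within each list. TGFb1 array 4 stands off from the other TGFb1 columns most for the ATF4, mitosis, DNA repair, epithelial factor, amino acid enzyme, serine and keratin lists. It does so by less for others, such as the chemokine and amino acid transporter lists.

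Single genes of other lists changed steeply. TFPI2, an inhibitor of serine proteases in the matrix, rose like F3, with 10.68, 10.35 and 10.54, against 8.23, 8.12, 8.27 and 7.72 (2.44 ± 0.129), and PLAUR, the urokinase receptor, rose by less (0.71 ± 0.111). ANXA3 had 9.02, 8.73 and 9.02, against 5.76, 5.24, 6.19 and 5.14 (3.34 ± 0.236), and 7 of 14 annexin and S100 genes rose while 1 fell. S100P fell (-1.46 ± 0.495), with TGFb1 array 4 next to the acriflavine arrays at 7.71, and the call was lost without TGFb1 array 1 or 3 or any acriflavine array. IGFBP4 had 11.91, 11.86 and 11.94, against 8.90, 9.06, 8.88 and 7.90 (3.22 ± 0.271), with probe sets from 1.56 to 3.22, while IGFBP7 did not pass (0.19 ± 0.205).

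Of the receptor tyrosine kinases and ligands the growth factor gene EREG (1.79 ± 0.217) and FGFR3, a fibroblast growth factor receptor (1.67 ± 0.157), rose, the platelet-derived growth factor gene PDGFA fell (-1.56 ± 0.0902), and MET, the receptor of hepatocyte growth factor, did not pass (0.00 ± 0.148). MYC fell (-0.65 ± 0.196), a call lost without acriflavine array 3. The efflux pumps ABCC3 (1.68 ± 0.137) and ABCG2 (0.79 ± 0.219) rose. Metallothionein MT1F rose (1.66 ± 0.181) and MT2A did not pass (0.26 ± 0.131), nor did the heat shock gene HSPH1 (0.43 ± 0.233), which passed without TGFb1 array 4. TUBE1, epsilon tubulin of the centriole, had 8.49, 8.64 and 8.48, against 11.34, 10.69, 11.40 and 10.52 (-2.45 ± 0.194).

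Sodium valproate, an inhibitor of histone deacetylases given on the same TGFb1 background, allowed the acriflavine change to be set against that of a second agent. The direct difference between TGFb1 with acriflavine and TGFb1 with valproate was tested, since both changes share the TGFb1 arrays. Of 10877 genes 3074 were higher with acriflavine (28.3%) and 2530 lower (23.3%), 640 (5.88%) and 648 (5.96%) of the 10877 at least 2-fold. The agents were given at different doses, which the values below do not adjust for.

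The amino acid response separated the agents. ASNS changed by -3.06 ± 0.219 with acriflavine and by 0.28 ± 0.219 with valproate, and the direct difference was -3.34 ± 0.234 (adjusted p = 1.07e-07). For PHGDH the direct difference was -4.02 ± 0.194, for BCAT1 -4.88 ± 0.279 and for ATF4 -1.03 ± 0.119. Of the 23 ATF4 and stress regulators 13 were lower with acriflavine than with valproate and 5 higher, ATF5 among them (2.96 ± 0.0969). COL1A1 changed by -3.88 ± 0.275 with acriflavine and 0.62 ± 0.275 with valproate, a difference of -4.50 ± 0.294.

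CDH1 was higher with acriflavine than with valproate by 2.22 ± 0.299 (adjusted p = 3.40e-05), and SNAI1 was lower by a log2 difference of -0.91 ± 0.169. FN1 changed by -0.27 ± 0.322 with acriflavine and by 1.24 ± 0.322 with valproate, and the direct difference was -1.51 ± 0.345. Cell division genes differed between the agents: 33 of 35 mitotic genes and 40 of 45 replication genes were higher with acriflavine, and their median changes were 0.17 and 0.38 with acriflavine, beside -1.25 and -0.83 with valproate. MKI67 changed by 0.37 ± 0.272 with acriflavine and -1.33 ± 0.272 with valproate (difference 1.69 ± 0.291). Histone genes were higher in 16 of 19 cases and mitochondrial ribosomal proteins in 55 of 74. H2BC11, outside those 19, was higher by 3.99 ± 0.133. IFIT2 was higher with acriflavine by 3.68 ± 0.168 and F3 by 4.07 ± 0.198, while CCND2 was lower by a log2 difference of -5.05 ± 0.515 and DNAJC12, a co-chaperone, by -4.88 ± 0.212.

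Of the 20 largest rises CLDN11 and SERPINA3 did not pass the test of a difference from valproate, and other genes that rose did not pass it either. CLDN11, a claudin, changed by 2.68 ± 0.288 with acriflavine, with a difference of 0.38 ± 0.308. CXCL8 changed by 2.27 ± 0.331 with acriflavine and 2.98 ± 0.331 with valproate, a difference of -0.71 ± 0.354. For SERPINA3 the difference was 0.14 ± 0.208, for MMP7 0.26 ± 0.242, for HLA-F -0.22 ± 0.24 and for EREG 0.01 ± 0.232. CCL20 (-0.38 ± 0.222), TNFAIP3 (0.13 ± 0.238), ICAM1 (-0.19 ± 0.172) and ITGA6 (-0.06 ± 0.0998) likewise did not pass, and their SEs give the precision of each difference.

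**Figure D5:**
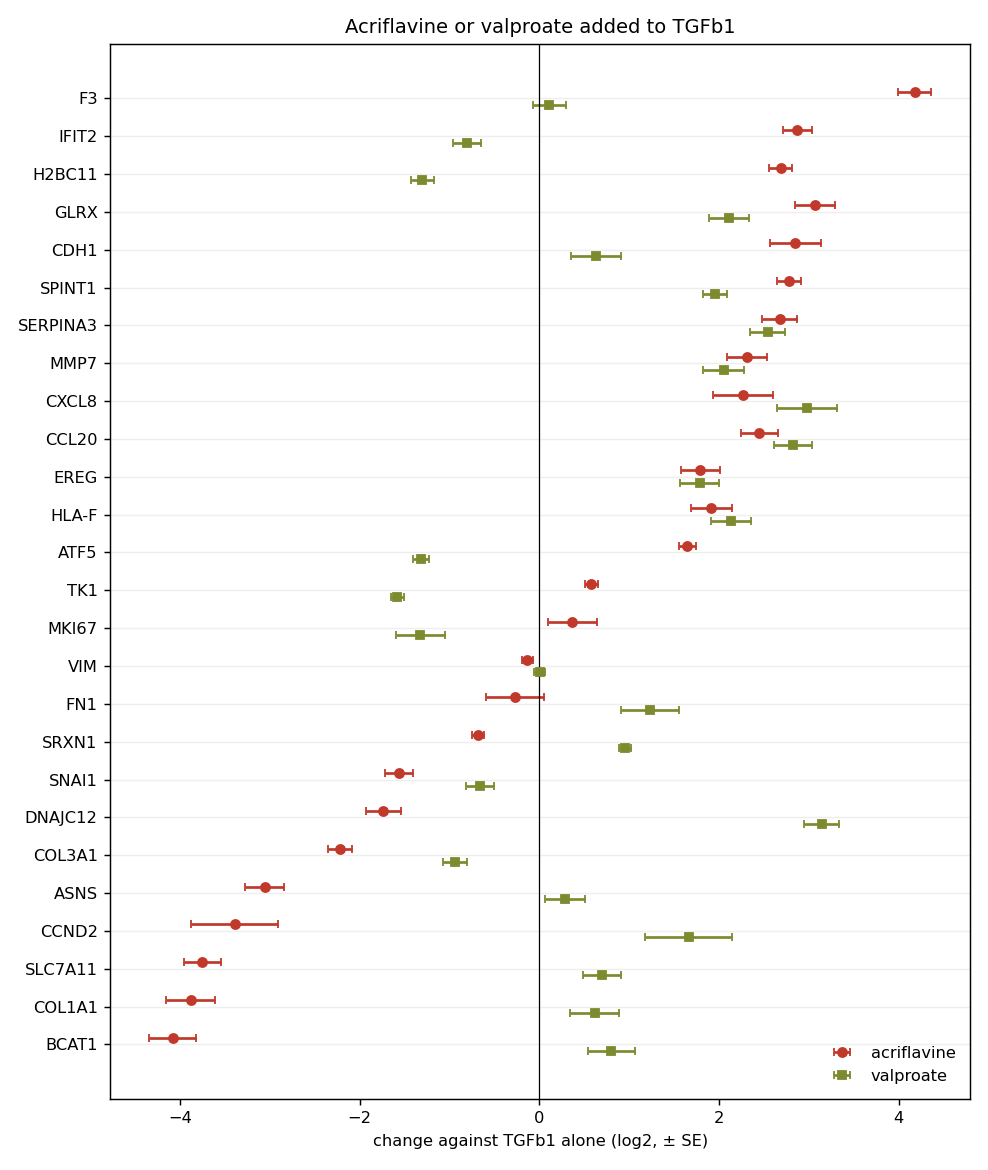
Log2 change relative to TGFb1 alone of 26 genes with acriflavine and with valproate, each with 1 SE either side, from the fit over all 14 arrays. Amino acid genes, COL1A1 and CCND2 lie far below 0 with acriflavine and near or above 0 with valproate, F3 and IFIT2 lie above 0 with acriflavine and near or below 0 with valproate, and CXCL8 and SERPINA3 lie above 0 with both.

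Genes under the brightness limit were fitted separately with no gene left out, and those named here were chosen after their values were seen. There were 7252 such genes. Those named as risen lay under the limit in the TGFb1 arrays, so their changes, too, may be understated. Rises numbered 455 (6.27%), of which 100 reached 2-fold, and falls 276 (3.81%), of which 32 did. SAA1, an acute-phase protein, averaged 9.41 ± 0.401 in acriflavine arrays and 5.21 ± 0.268 in TGFb1 arrays (SD, n = 3 and 4), a change of 4.20 ± 0.187. The chemokine gene CCL7 averaged 9.55 ± 0.152 with acriflavine and 5.65 ± 0.43 with TGFb1 alone (3.91 ± 0.236), and CLDN6, a claudin, averaged 8.64 ± 0.0866 and 5.92 ± 0.228 (2.73 ± 0.145). The arrays of the groups did not overlap for any of them. IFNL1, a type III interferon, averaged 8.63 ± 0.199 and 5.94 ± 0.251 (2.69 ± 0.132). The chemokines CXCL6 (2.69 ± 0.319), CXCL3 (2.17 ± 0.274) and CXCL11 (1.95 ± 0.296) rose too. INHBE, a target of ATF4, fell (-1.94 ± 0.398), as did CSTA, a cysteine protease inhibitor (-2.63 ± 0.499).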

How the data were processed

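RNA of PANC-1 cells was amplified from its poly(A) end, labelled and hybridised to arrays of 49193 probe sets, per the labels' protocols. The authors deposited log2 intensities after RMA, run with affy 1.44.0 per the submitters' processing notes. Which arrays were normalised together is not given in the sources used here. RMA holds the distribution of every array alike, so a shift common to most genes would not show. Values ran from 2.97 to 15.1 with none missing.

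Probe sets were named through GEO's platform annotation: 44898 had 1 gene symbol, 1825 had several and 2470 were unnamed. The probe set with the highest mean stood for each of 18129 genes, and the dimmest 40% by mean were left out, which left 10877 genes with means of at least 6.89. One limma fit (version 3.58.1, R 4.3.3, lmFit and eBayes) over all 14 arrays in 4 groups gave each contrast, and Benjamini-Hochberg adjustment ran over all genes tested. No slide or scan date is in the files used, so no such batch was tested. The samples share replicate numbers 1 to 3 between groups. Deviations of same-numbered acriflavine and TGFb1 arrays from their group means correlated at -0.0272, 0.467 and 0.0861 (-0.000472, 0.398 and 0.368 with TGFb1 array 4 left out of its group mean), and since the first is not above 0.1 the numbers were not taken to pair them.

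The genes named come from a rule that gives, among those that passed and do not overlap, the 20 largest rises and falls, up to 4 passing members of each list in its main direction, up to 2 in the other and up to 2 of the brightest that did not pass, all of a list of key genes, and the 8 largest differences from valproate in each direction. Of the 457 genes it gives, the text names 212, picked with their values in view. The genes below the brightness limit are an exception to it. The comparison, the members and the gene lists were chosen with earlier results of these data known. Promoters came from RefSeq (GRCh38.p14), from 250 bases before to 50 after the transcription start. Alternatives to the brightness limit, probe set rule, scaling, variance model, array weights, samples in the fit, threshold and arrays used were run. Figures were drawn with matplotlib 3.10.9.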

Additional observations from a re-analysis of the deposited data

Results flagged for a closer look

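Of the 221 genes named and checked in the 4 TGFb1 arrays, 41 had 1 array whose gap to the nearest of the others was above Dixon's critical value, 38 of them TGFb1 array 4. Chance gives this in about 1 of 20 groups. The acriflavine group has 3 arrays and was not checked. Values are log2 intensities, each followed by the nearest of the other TGFb1 arrays.

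TGFb1 array 4 lay below the other TGFb1 arrays for genes of the amino acid and stress responses: AARS1 (10.25, next 10.85), YARS1 (10.69, next 11.46), DDIT4 (11.91, next 12.99), GOT1 (9.511, next 11.47), HERPUD1 (10.59, next 11.13), INHBE (5.248, next 6.952), NUPR1 (11.72, next 12.64), PCK2 (8.599, next 10.52), PHGDH (11.33, next 12.08), PPP1R15A (9.033, next 10.11), SLC1A4 (7.983, next 9.491), SLC1A5 (10.39, next 11.37), SLC7A5 (11.24, next 12.54), XBP1 (10.79, next 11.74) and CEBPB (11.25, next 12.4). It was the lowest also for the epithelial and matrix genes CLDN6 (5.578, next 5.994), ESRP2 (7.246, next 8.114), SPINT1 (8.269, next 8.694), CNN1 (8.412, next 9.879) and COL1A1 (11.24, next 12.45). The others at which it was lowest were ADM (12.02, next 12.87), CITED2 (10.08, next 11.43), HMOX1 (12.34, next 13.62), IFI35 (9.972, next 10.4), IGFBP4 (7.899, next 8.879), ITGA3 (10.57, next 11.51), IRF7 (9.173, next 9.906), MT2A (14.06, next 14.67) and MYC (12.09, next 12.67). It was the highest for CANX (13.34, next 12.97), CCL7 (6.284, next 5.479), HSPH1 (12.49, next 11.4), IFIT1 (9.314, next 8.425), MKI67 (10.82, next 9.589), PRIM1 (10.16, next 9.537), SCD (14.18, next 13.92), TOP1 (11.48, next 10.98) and UGGT1 (8.851, next 8.484).

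TGFb1 array 2 was the lowest for CDK6 (10.58, next 11.24) and the highest for FASN (10.44, next 10.0). TGFb1 array 3 was the lowest for COL16A1 (7.383, next 7.608). Control array 4 had a standard deviation about its group mean of 0.250, against 0.107 to 0.151 in the other controls. Replicate number 4 occurs in the control and TGFb1 groups only, so no acriflavine array shares it. With the arrays numbered 4 of control and TGFb1 left out, 3539 genes rose and 2752 fell. What sets these arrays apart was not tested.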

How the results depend on the processing

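The counts over all genes, the counts of each list and the values of named genes tested were recomputed under 22 other settings. The promoter counts and the genes below the brightness limit were not. Of 212 such named genes, 167 kept their direction and their side of the threshold in each of them. With the dimmest 60% left out, 235 genes rose at least 2-fold, out of fewer genes tested. With each probe set tested separately, 5682 probe sets rose, 5225 fell, 858 rose and 844 fell at least 2-fold, and 7004 were higher and 5902 lower than with valproate, counts of probe sets and not of genes. With array quality weights 4719 genes rose and 3934 fell (the weights stopped short of their tolerance), and 3 genes that had not passed fell: MET (-0.28), TNFAIP2 (-0.10) and VARS1 (-0.18), the cause of which was not tested. MET also fell (-0.29) with TGFb1 arrays 2 and 4 both left out, a choice made after seeing the data. With 1 acriflavine or TGFb1 array left out (no valproate array was), 2079 to 3199 genes rose and 1657 to 2415 fell, 384 to 463 and 330 to 377 of them at least 2-fold, and 2604 to 3494 were higher and 2099 to 2961 lower than with valproate.

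With the compared groups fitted alone, 2084 genes rose and 1624 fell, and 8 named genes lost their call. At an adjusted p under 0.01, 1890 rose and 1462 fell, and 12 named genes lost their call. With the replicate number as a block, 3269 genes rose and 2515 fell, 451 and 359 at least 2-fold, and 3552 were higher and 3000 lower than with valproate. The check of deviations cannot settle whether the numbers pair the samples, since each group mean rests on 3 or 4 arrays. With the block, 12 named genes that had not passed did so.

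TGFb1 array 4 and the 3 arrays of the acriflavine group limit these values. Probe brightness limits dim genes, and the scanner's background was not used here.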
